A study of Mus musculus with 36 samples.

Results

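Genes that mark classes of inhibitory neurons in the forebrain were followed, 9 in all: the peptide genes Sst, Cort, Npy, Vip, Cck, Crh, Penk and Pdyn, and the calcium-binding protein gene Pvalb. They were chosen by symbol, and all 9 were found among the 56184 genes of the deposited count table and the 21637 genes of the deposited CPM table (counts scaled to the library's total). The samples were 36 brain libraries of polyadenylated RNA from mice with the wild-type (WT) or knockout (KO) genotype of Gpt2, which encodes a mitochondrial alanine transaminase. Injections into the peritoneum held either vehicle or 600 mg per kg of dm-αKG, an α-ketoglutarate ester that enters cells, and brains were taken on postnatal day 19. Vehicle went to 10 WT libraries (called WT-Veh) and to 10 KO libraries (KO-Veh), and dm-αKG to 8 of each genotype (WT-aKG and KO-aKG). RNA came from 10 mg of brain, and neither the brain region of these pieces nor the construction of the KO allele is given in the sources used here.

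Interneurons of the cerebral cortex release GABA onto nearby neurons, and their main classes are told apart by the peptide or calcium-binding protein they make. Somatostatin (Sst) neurons contact dendrites, parvalbumin (Pvalb) neurons fire fast onto cell bodies, and Vip neurons mostly inhibit other interneurons. Neuropeptides are cut from larger precursors, stored in dense core vesicles and released during sustained firing, and transcription of several of their genes follows neuronal activity. None of the 9 genes is made by interneurons alone: Pvalb is abundant in the cerebellum, Penk and Pdyn in striatal projection neurons, Cck in cortical pyramidal neurons, and Npy and Crh in the hypothalamus.

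In the RefSeq sequence, 4 members carry the cyclic AMP response element, or its first part, just upstream of their RefSeq transcription start. A search of the 250 bases before the start, on both strands, looked for TGACGTCA (the whole element), TGACG (its first part, contained in the whole element) and TGATGNAA (a composite element of C/EBP and ATF factors). RefSeq promoters (build GRCm38.p6) were at hand for 7 of the 9 members, without Penk and Crh. The windows below, each of 30 bases and written along the gene's strand, are shown because they hold these matches, in capitals.
Sst: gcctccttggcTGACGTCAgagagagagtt
Cort: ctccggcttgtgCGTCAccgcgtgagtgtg
Vip: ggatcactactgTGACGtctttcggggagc
Cck: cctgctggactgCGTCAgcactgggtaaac
They lie at chr16:23890874-23890903 on the minus strand for Sst, chr4:149126764-149126793 on the minus strand for Cort, chr10:5639127-5639156 on the plus strand for Vip and chr9:121495724-121495753 on the minus strand for Cck. The capitals in Cort and Cck read TGACG on the other strand. Sst held the whole element, which was found in 1.55% of 32851 promoters, and TGACG was found in 17.8%. Npy, Pvalb and Pdyn had none of these motifs in the window, and TGATGNAA, found in 3.45% of promoters, was in none of the 7 members. A match is a description of the letters and says nothing about binding in these brains.

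Cort (chr4:149125034-149126763, GRCm38) encodes cortistatin, a relative of somatostatin that binds the same receptors, and Sst lies at chr16:23889573-23890958. Gene bounds are those of the GENCODE annotation. For Sst they begin upstream of the RefSeq start, so the Sst window above lies inside them. The last 45 bases of the 2 coding sequences are shown because they encode the shared end of these peptides; capitals mark bases identical in the alignment.
Sst: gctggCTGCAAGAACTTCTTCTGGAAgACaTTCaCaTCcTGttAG
Cort: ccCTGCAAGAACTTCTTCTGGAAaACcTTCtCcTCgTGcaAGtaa
Of 42 bases compared, 33 were identical (78.6%), and the longest shared run was 21 bases.

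The libraries held 5.77 to 13.3 M counts (median 11.4 M). Gpt2 itself lay between 22 and 39 CPM in the WT libraries and between 0.881 and 3.3 CPM in the KO libraries, so it did not overlap between genotypes. Libraries in which Xist exceeded the Y-linked gene Ddx3y numbered 2 of 10 in WT-Veh and 2 of 10 in KO-Veh, and 5 of 8 in WT-aKG and 4 of 8 in KO-aKG. Sex by these genes was thus uneven between treatments, and in part cannot be told apart from treatment. High cerebellar markers set apart 9 libraries, namely WT-Veh-1, 6 and 9, WT-aKG-3, 6, 7 and 8, KO-Veh-7 and KO-aKG-7. Their cerebellum score (the mean log2 CPM of granule and Purkinje cell marker lists that hold none of the members) was 4.73 to 6.96, against 1.77 to 3.88 in the other 27. Since 7 of these 9 are WT, each result is given over all 36 libraries and over the 27 others (7 WT-Veh, 9 KO-Veh, 4 WT-aKG and 7 KO-aKG).

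Cort was higher in KO than in WT brain, the one member that passed edgeR's test both over all 36 libraries and over 27. With vehicle, the 7 WT libraries that are not cerebellum-high ran from 1.34 to 10.9 CPM (median 6.39), and the 9 KO libraries from 11.9 to 28.5 CPM (median 19). Every KO library thus lay above every WT library. In this comparison 3.77% of all genes were called (2.23% higher). How many of all genes separated the groups in full was not counted, so how unusual this separation is cannot be told. The fitted difference was 1.56 on the log2 scale (SE 0.42), a 2.95-fold higher level, with an adjusted p of 0.0336 by edgeR's quasi-likelihood test. Over all 36 libraries it was 1.89 (SE 0.56, adjusted p = 0.0443), and 9 of 10 KO libraries lay above the highest of 10 WT libraries. The exception, KO-Veh-7, is cerebellum-high and had 0.355 CPM, from 4 counts. Cort is a low-count gene: its counts per library ran from 4 to 312.

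With dm-αKG, Cort was split among the KO libraries. The 4 WT libraries of the 27 had 3.67, 4.8, 7.26 and 8.92 CPM. The 7 KO libraries had 1.12, 4.7, 5.57, 5.69, 9.69, 20.3 and 22.1 CPM. The 2 highest, KO-aKG-1 and KO-aKG-3, lay in the range of KO-Veh, while 1.12 CPM was below the WT range and 9.69 CPM just above it. The difference did not pass the test over 27 libraries (log2 0.70, SE 0.53, 95% interval -0.41 to 1.80, adjusted p = 0.463) or over 36 (1.36, SE 0.63, adjusted p = 0.287). Averaged over both treatments, the genotype effect on Cort was 1.63 over 36 libraries (SE 0.42, adjusted p = 0.0100) and 1.13 over 27 (SE 0.34, adjusted p = 0.0319). This averaged effect stayed past the threshold under each of 16 other settings (1.13 to 1.73) and with each of the 36 libraries left out in turn (1.49 to 1.79).

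**Figure D1:**
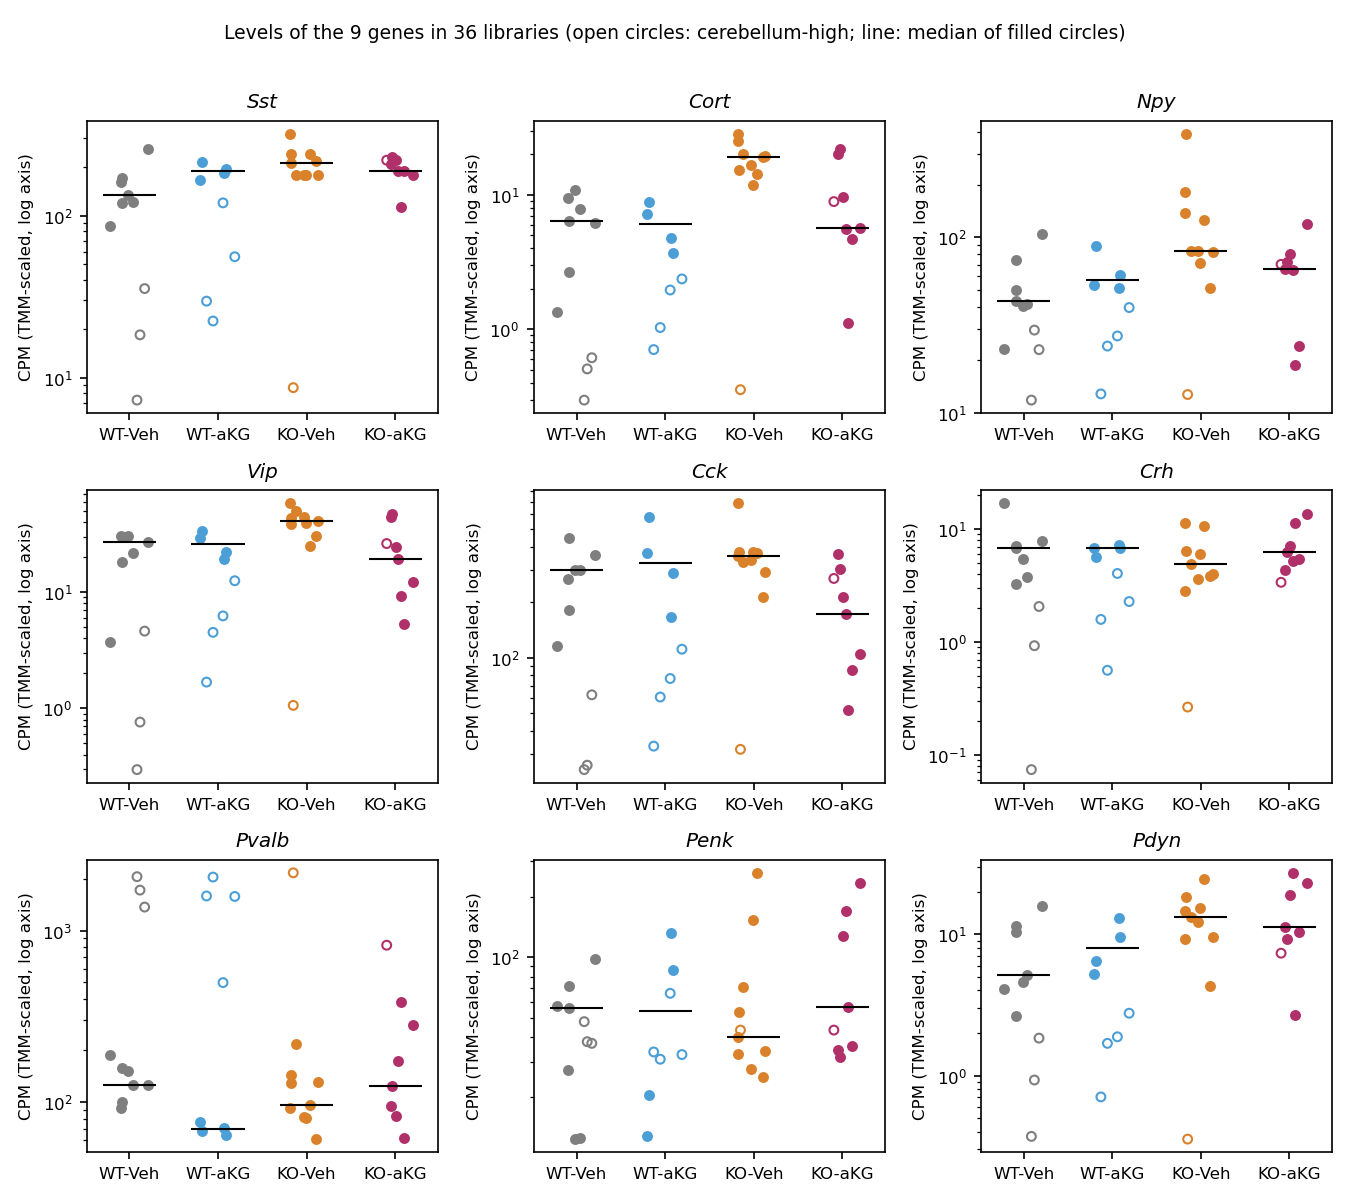
TMM-scaled CPM of each member (log axis) in every library, by group; filled circles are the 27 libraries, open circles the 9 cerebellum-high libraries, and lines the median of the filled circles. In Cort all 9 filled KO-Veh circles lie above the filled WT-Veh circles, and in Pvalb the open circles lie at 497 to 2170 CPM.

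Of the 9 members, 2 passed the test with vehicle over 36 libraries, Cort and Npy, both higher in KO, where 4.31% of the 16255 genes tested were called (2.6% higher). Over 27 libraries 1 passed, Cort, where 3.77% of 16524 genes were called (2.23% higher). DESeq2 called 3 there, Cort, Npy and Sst, but it called 1025 of all genes, against 623 by edgeR. With dm-αKG none passed by edgeR over 36 libraries (1.87% of genes called), where 2 members and 15.7% of genes were at an unadjusted p under 0.05, or over 27 (3.63% called), where 2 members and 21.8% of genes were. DESeq2 called none of them over 36 libraries and 1, Pvalb, over 27. Of all genes it called 510 and 1093 in these fits, against 304 and 599 by edgeR. Averaged over both treatments 3 passed over 36 libraries, Cort, Npy and Pdyn (11.9% of genes called, 5.7% higher), and 1 passed over 27, Cort (10.9% called, 5.28% higher). Beside these shares the members' counts are small numbers, and the results below are those of single genes. The median difference of the 9 members with vehicle was 0.81 against -0.02 for all genes over 36 libraries, and 0.70 against -0.00 over 27.

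The vehicle comparison alone was close to the threshold for Cort. Over 36 libraries the call was lost when any 1 of 11 libraries was left out (WT-Veh-1, 2, 5, 6 and 9, KO-Veh-1, 2, 4, 5, 8 and 10), with differences of 1.74 to 1.89 and adjusted p-values of 0.0598 to 0.0858. Over 27 libraries the call with vehicle held in 9 of 16 such fits (highest adjusted p 0.0719), and the averaged call in 22 of 27 (highest adjusted p 0.0851). Without the 5 hypothalamus-high libraries described with Npy, the difference with vehicle was 1.46 (SE 0.46, adjusted p = 0.0647).

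Sst, the peptide gene related to Cort, did not pass the test by edgeR. With vehicle over 27 libraries it ran from 86.9 to 257 CPM in WT (median 134) and from 178 to 320 CPM in KO (median 211), and the groups overlapped. The fitted difference was 0.53 (SE 0.17, adjusted p = 0.0776; DESeq2 called it, adjusted p = 0.0349), and over 36 libraries 0.81 (SE 0.46, adjusted p = 0.302). With dm-αKG over 27 libraries the medians were 189 CPM in both genotypes, with a difference of 0.01 (95% interval -0.43 to 0.44).

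Whether Cort differed more than Sst was tested as the log2 ratio of the 2 genes in each library. With vehicle this ratio was -4.71 ± 0.78 in WT (SD, n = 10) and -3.57 ± 0.42 in KO (SD, n = 10). The KO-minus-WT difference was 1.13, with an adjusted p of 0.00316 over the 4 ratio tests (2-sided permutation test, 100000 resamples). Over 27 libraries the difference was 1.17 (exact permutation test, adjusted p = 0.00734). Cort was therefore higher in KO relative to Sst with vehicle, with and without the cerebellum-high libraries. With dm-αKG the ratio differed by 0.25 (exact permutation test, adjusted p = 0.586), or 0.28 over 27 libraries.

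**Figure D2:**
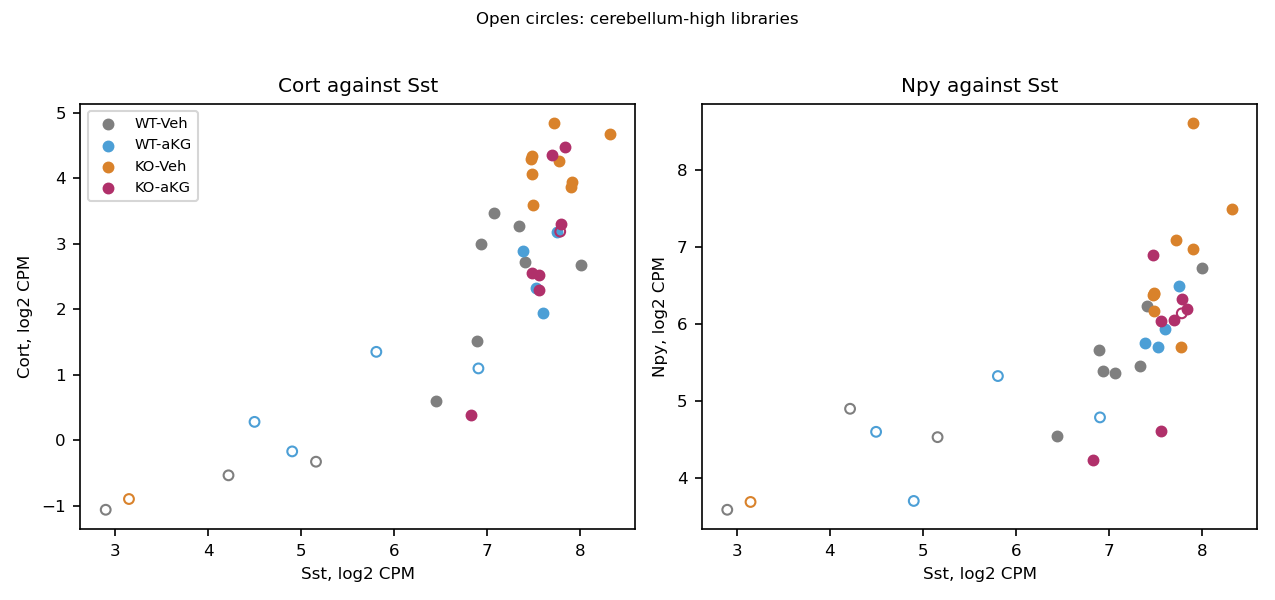
Log2 CPM of Cort (left) and Npy (right) against Sst, 1 point per library, coloured by group; open circles are cerebellum-high. At Sst levels between 7 and 8 on the log2 scale most KO-Veh points lie above the WT points for Cort, while KO-Veh-9 is the top point for Npy.

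Npy (chr6:49822710-49829507) encodes neuropeptide Y, made by part of the Sst neurons, by neurogliaform interneurons and by hunger neurons of the hypothalamus. With vehicle over all libraries it ran from 11.8 to 105 CPM in WT (median 41.3, n = 10) and from 12.7 to 390 CPM in KO (median 83.8, n = 10). The 4 highest KO libraries lay above the highest WT library, and the rest overlapped. Npy was higher in KO by 1.46 (SE 0.42, 2.75-fold, adjusted p = 0.0391). Over 27 libraries the difference was 1.32 (SE 0.40) and missed the threshold (adjusted p = 0.0629), while DESeq2 called it there (1.31, adjusted p = 0.0213).

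The top Npy value belongs to KO-Veh-9, whose hypothalamus score was 4.51, the highest of the 27 libraries (mean log2 CPM of the 11 of 16 listed genes tested over 36 libraries, or 3.89 with the 14 tested over 27). Agrp, which encodes a peptide made by the Npy neurons of the hypothalamus and by few other brain cells, was at 80.3 CPM in that library, against 0.535 to 11.8 CPM in the other vehicle libraries. With dm-αKG, Agrp was at 40.6 CPM in KO-aKG-6 and 14.2 CPM in KO-aKG-2. KO-aKG-6, the highest KO-aKG library for Npy (119 CPM), is not among the 5 hypothalamus-high libraries named below. Without KO-Veh-9 the Npy difference was 1.06 (adjusted p = 0.0998) over 36 libraries and 0.91 over 27. Its call over 36 libraries was also lost without WT-Veh-1, 2, 6, 7, 8, 9 or 10, KO-Veh-1 or KO-Veh-4 (adjusted p = 0.0509 to 0.0998 over these 10 fits). Over 27 libraries without the 5 of highest hypothalamus score by those 14 genes (KO-Veh-9, KO-aKG-5, KO-aKG-2, WT-Veh-5 and KO-Veh-8), a fit chosen after the data had been seen, the Npy difference was 1.00 (SE 0.34, adjusted p = 0.0890). The ratio of Npy to Sst differed with vehicle by 0.22 over 36 libraries (permutation test, adjusted p = 0.586) and by 0.61 over 27 (exact permutation test, adjusted p = 0.0885), so a larger change of Npy than of Sst was not shown. With dm-αKG, Npy was at 51.6 to 89.8 CPM in the 4 WT and 18.6 to 119 CPM in the 7 KO libraries of the 27, a difference of 0.01 (95% interval -0.99 to 1.02).

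Vip (chr10:5639218-5647617) encodes vasoactive intestinal peptide. With vehicle over 27 libraries it ran from 3.72 to 30.4 CPM in WT (median 26.8) and from 25 to 57.9 CPM in KO (median 41). Of 9 KO libraries, 7 lay above the highest WT library. The difference of 0.84 (SE 0.36) did not pass the test (adjusted p = 0.197), nor did that of 1.15 over 36 libraries (adjusted p = 0.239). With 5 region scores as covariates over 27 libraries it passed (0.60, SE 0.15, adjusted p = 0.0220). Cck (chr9:121489824-121495694) encodes cholecystokinin, a peptide of both basket interneurons and pyramidal neurons. It ran from 116 to 447 CPM in WT and from 212 to 689 CPM in KO with vehicle over 27 libraries, and the groups overlapped, with 1 KO library above the WT range and 2 WT libraries below the KO range (0.41, SE 0.33, adjusted p = 0.549). With dm-αKG its medians were 328 CPM in 4 WT and 172 CPM in 7 KO libraries (-0.90, SE 0.41, adjusted p = 0.192). Crh (chr3:19693401-19695396) encodes corticotropin-releasing hormone and lay between 2.86 and 17 CPM in the 27 libraries. Its differences were -0.28 with vehicle (SE 0.32) and 0.23 with dm-αKG (SE 0.40), neither past the threshold (adjusted p = 0.691 and 0.788).

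Pvalb (chr15:78191114-78206400), the calcium buffer of fast-spiking interneurons, separated the cerebellum-high libraries from the rest. It was at 497 to 2170 CPM in those 9 libraries and at 60.8 to 385 CPM in the other 27, with no overlap. This description is not independent of how the 9 were set apart, since Purkinje cells and other cerebellar inhibitory neurons make Pvalb. In the same 9 libraries Cort was at 0.297 to 8.92 CPM and Sst at 7.28 to 220 CPM, with KO-aKG-7 the highest for both.

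Neither genotype comparison of Pvalb passed the test. Over 36 libraries the difference was -0.93 with vehicle (SE 0.79, adjusted p = 0.519) and -1.57 with dm-αKG (SE 0.90, adjusted p = 0.405). Over 27 libraries it was -0.23 with vehicle (SE 0.30, adjusted p = 0.738) and, with the opposite sign, 1.31 with dm-αKG (SE 0.39, adjusted p = 0.0584). In that last comparison the 4 WT libraries lay at 64.1 to 76.1 CPM and the 7 KO libraries at 61.8 to 385 CPM, 6 of them above the highest WT library. The 2 highest, KO-aKG-8 and KO-aKG-6, also had high cerebellum scores (3.85 and 3.88, against 2.01 to 2.82 in the 4 WT-aKG libraries). Leaving out 1 library, KO-Veh-7, gave -2.41 with vehicle over 36 libraries (adjusted p = 0.0366), so the direction and the call of Pvalb rest on which libraries are kept.

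Penk (chr4:4133531-4138819) and Pdyn (chr2:129686565-129699844) encode the precursors of enkephalins and dynorphins, the opioid peptides of the 2 classes of striatal projection neurons. Penk overlaps A830012C17Rik on the opposite strand, and whether strand was used in counting is not given. Penk ran from 12.4 to 97.9 CPM in WT-Veh and from 25.4 to 263 CPM in KO-Veh over 27 libraries, with medians of 56.1 and 40 CPM. Its fitted difference was 0.70 (SE 0.60, adjusted p = 0.569): the sign of the fit is that of the means, 47.8 and 77.9 CPM, and not of the medians. The 4 highest Penk libraries, KO-Veh-3, KO-aKG-6, KO-aKG-4 and KO-Veh-6, had striatum scores of 4.43 to 4.87, where the median of the 27 was 2.33.

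Pdyn was higher in KO when both treatments were averaged over 36 libraries (1.27, SE 0.40, 2.41-fold, adjusted p = 0.0340). With vehicle it ran from 0.371 to 15.8 CPM in WT (median 4.36) and from 0.355 to 24.7 CPM in KO (median 12.8), and with dm-αKG from 0.706 to 13 CPM in WT (median 4) and from 2.66 to 27.2 CPM in KO (median 10.7). The genotypes overlapped under both treatments. Neither treatment alone passed (1.10, adjusted p = 0.227, and 1.44, adjusted p = 0.228), and over 27 libraries the averaged effect was 0.80 (SE 0.32, adjusted p = 0.108). The averaged Pdyn call over 36 libraries was lost without WT-aKG-3, 6, 7 or 8, KO-Veh-3, or KO-aKG-2, 4 or 6 (1.17 to 1.23). That of Npy, 0.99 as fitted (SE 0.31, adjusted p = 0.0342), was lost without WT-Veh-6, WT-aKG-3, 6, 7 or 8, KO-Veh-9, KO-aKG-2 or KO-aKG-6 (0.80 to 0.98).

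**Figure D3:**
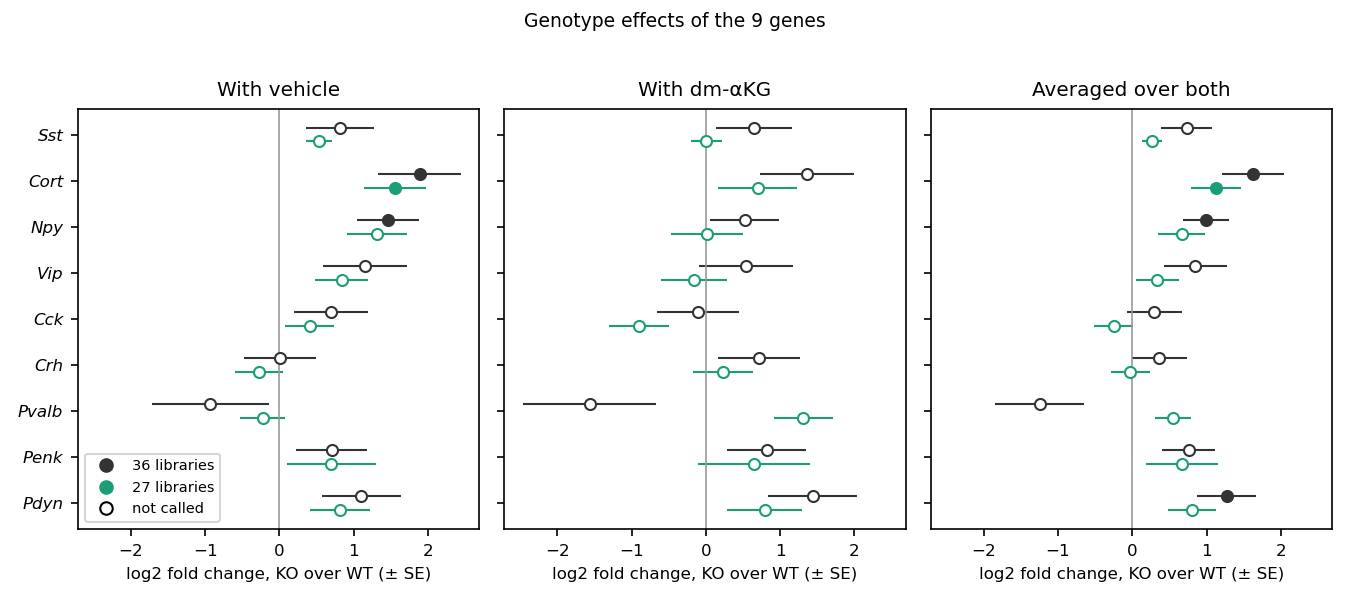
Log2 fold change of KO over WT (points) ± SE (bars) for the 9 members with vehicle, with dm-αKG and averaged, over 36 libraries (black) and 27 (green); filled points passed the test. Only Cort is filled in both colours, and Pvalb with dm-αKG lies on opposite sides of 0 (-1.57 and 1.31).

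No member passed the test for an effect of treatment. In WT and in KO, and for the interaction of genotype and treatment, edgeR called 0 of all genes over 36 libraries, with 1389, 1973 and 729 genes at an unadjusted p under 0.05 (8.55%, 12.1% and 4.48%), and 0 over 27 libraries with 1136, 3439 and 2055 (6.87%, 20.8% and 12.4%). Of the members, 0, 1 and 0 were under an unadjusted p of 0.05 over 36 libraries, and 1, 4 and 3 over 27. With Xist above Ddx3y as a covariate over 36 libraries, edgeR also called 0 of all genes in WT, in KO and for the interaction. DESeq2 called none of the members in these comparisons. Of all genes it called 90, 20 and 0 over 36 libraries, and 0, 506 and 15 over 27. In KO over 27 libraries the largest fitted differences of dm-αKG against vehicle were in Npy (-1.08, SE 0.40, adjusted p = 0.131) and Cck (-1.0, SE 0.34, adjusted p = 0.111), followed by Cort (-0.93, SE 0.40, adjusted p = 0.190). The cerebral cortex score in these groups was 4.62 ± 0.34 in KO-Veh (SD, n = 9) and 3.51 ± 0.94 in KO-aKG (SD, n = 7), and the hypothalamus score 1.03 ± 1.62 and 2.17 ± 1.52. With 5 region scores as covariates over the 27 libraries, the same differences were -0.07 for Npy (SE 0.38), -0.07 for Cck (SE 0.17) and -0.17 for Cort (SE 0.21), each with an adjusted p of 0.999. The interaction of Cort was -0.87 over 27 libraries (SE 0.66, adjusted p = 0.574), so its genotype effect was not shown to differ between treatments.

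Across the 27 libraries, most members went with the markers of a brain region. Log2 levels were taken as deviations from the group means, so that genotype and treatment do not enter, and set against the mean log2 CPM of a region's marker list. With the cerebral cortex score, Pearson's r and Spearman's rho were 0.94 and 0.92 for Cck, 0.89 and 0.82 for Vip, and 0.84 and 0.79 for Cort (all with adjusted permutation p = 1.8e-05 over 9 relations, from the smallest p that the permutations can give). For Npy they were 0.62 and 0.60 (adjusted permutation p = 0.000506 and 0.00162) and for Sst 0.60 and 0.58 (0.00083 and 0.0018). Without the 2 libraries farthest in cortex score, WT-Veh-2 and KO-aKG-8, r was 0.91 for Cck, 0.87 for Vip, 0.76 for Cort, 0.48 for Npy and 0.38 for Sst. The relation of Sst thus rested in good part on those libraries. Each member had also been correlated with every other marker list in the same libraries. The p-values here and in the next paragraph do not count the choice of the region shown.

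Penk followed the striatum score (r = 0.93, rho = 0.92) and so did Pdyn (r = 0.75, rho = 0.81), each with an adjusted permutation p of 1.8e-05. Without KO-Veh-3 and KO-Veh-6, r was 0.92 and 0.75. Pvalb followed the cerebellum score within the 27 libraries (r = 0.73, rho = 0.69, adjusted permutation p = 9e-05 and 0.00018), and r was 0.69 without KO-Veh-9 and KO-Veh-10. Crh followed the midbrain and hindbrain score (r = 0.64, rho = 0.54, adjusted permutation p = 0.000257 and 0.00406), with r = 0.43 without WT-Veh-2 and KO-aKG-8. Gene and score come from the same library in each case, and in bulk tissue fewer cells of a type and less RNA per cell cannot be told apart.

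**Figure D4:**
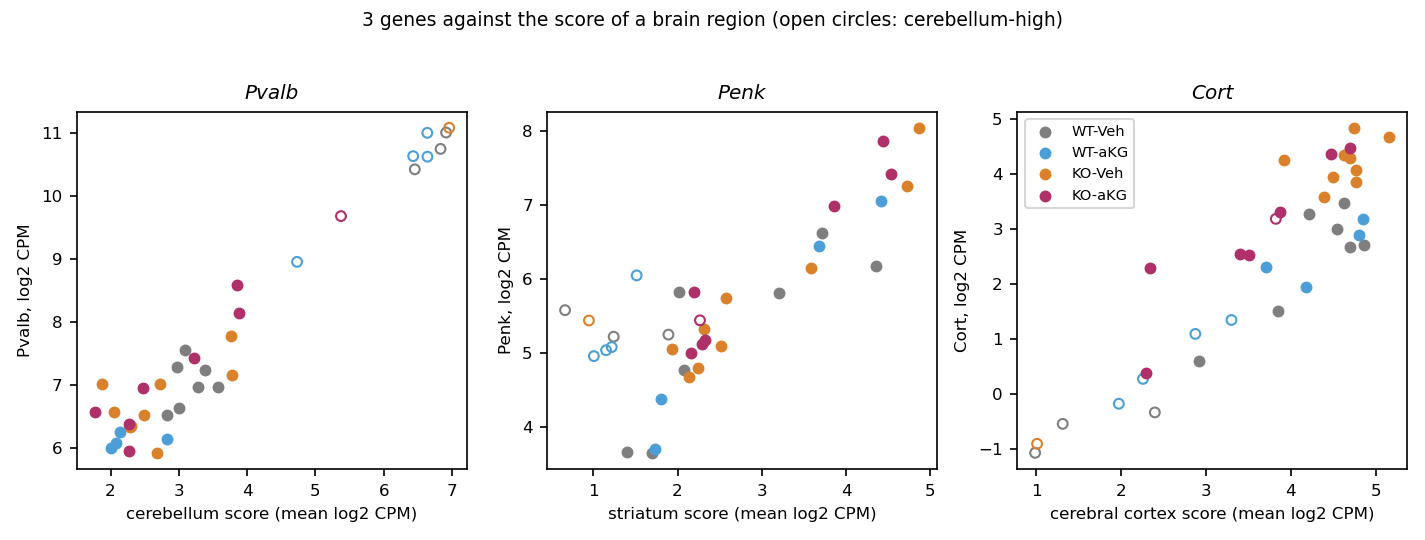
Log2 CPM of Pvalb, Penk and Cort against the score of cerebellum, striatum and cerebral cortex, 1 point per library, coloured by group; open circles are cerebellum-high. Pvalb and Penk lie along 1 line with their region, and most KO points of Cort lie above the WT points of like cortex score.

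With region scores held in the model, the genotype effect on Cort passed the test under both treatments. The scores come from the same libraries, and some of their genes were themselves called by genotype. With dm-αKG these included Hcrt and Pmch (hypothalamus) over 36 libraries and Sstr3 (cerebral cortex) over 27. The cortex list also holds Fezf2, the gene nearest to Cort (r = 0.95 over 27 libraries). The scores are thus not measures of region apart from genotype. With 6 region scores as covariates over 36 libraries the effect on Cort was 1.28 with vehicle (SE 0.18, adjusted p = 1.73e-05) and 1.21 with dm-αKG (SE 0.24, adjusted p = 0.00445). With 5 region scores over 27 libraries it was 1.44 (SE 0.20, adjusted p = 5.67e-05) and 1.20 (SE 0.28, adjusted p = 0.0483). The same models gave 0.67 and 0.65 for Npy with vehicle, neither past the threshold (adjusted p = 0.117 and 0.227). The averaged effect of Vip was 0.52 and 0.51 (adjusted p = 0.0123 and 0.00845) and that of Pdyn 0.59 and 0.64 (adjusted p = 0.00986 and 0.0175), all higher in KO. Averaged Pvalb was 0.48 with 6 scores (adjusted p = 0.00447), 0.60 with 5 scores over 27 libraries (adjusted p = 0.136), and -1.25 without scores over 36 (adjusted p = 0.166). Beside them, 1438 genes were called with vehicle with 6 scores in the model, against 701 without. With dm-αKG 273 were called, against 304, and averaged 2536, against 1930. Over 27 libraries with 5 scores, 953 were called with vehicle (623 without scores), 96 with dm-αKG (599) and 2049 averaged (1809).

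**Figure D5:**
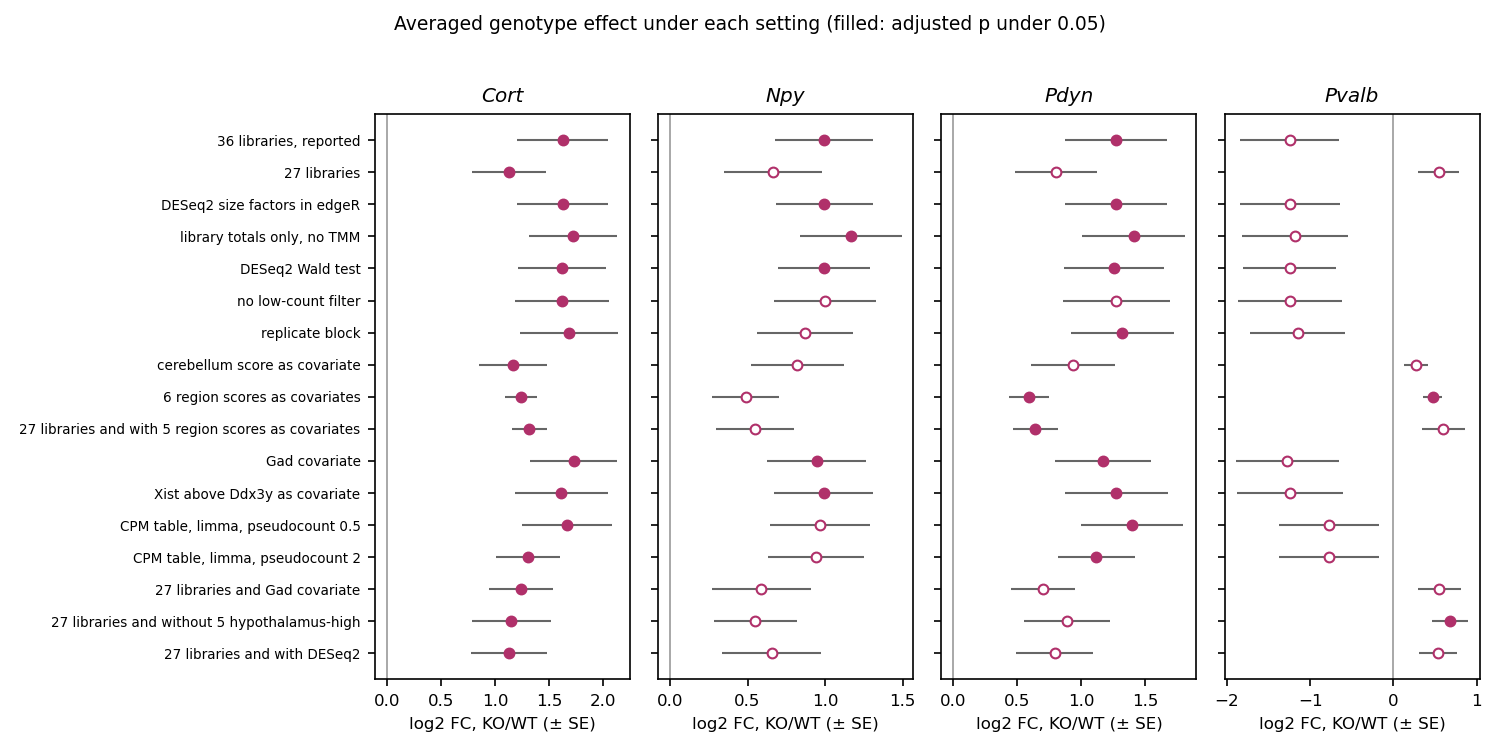
Averaged genotype effect (log2, ± SE) on Cort, Npy, Pdyn and Pvalb under the reported fit and each other setting; filled points have an adjusted p under 0.05. Cort is filled in each row shown (1.13 to 1.73), and Pvalb changes sign where the cerebellum-high libraries are left out or region scores enter.

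Genes among the nearest to each member over the 27 libraries, by Pearson's r of the same deviations among 10126 genes at a mean of 5 CPM or more, were as follows. Cort went most closely with Fezf2, a transcription factor of deep-layer pyramidal neurons (r = 0.95), Syt16 (0.94) and Ensa (0.93). Vip went with Plk2 and Emx1 (both 0.90), and Cck with Enc1, Cyria and Fhl2 (all 0.94). For Penk they were Pcp4l1 (0.93), Rgs9 (0.92) and Tac1 (0.91), and for Pdyn Cpne5 (0.88), Ppp1r9a and Tmem158 (both 0.83). Emx1 is a transcription factor of cortical pyramidal neurons, and Rgs9 is a regulator of G protein signalling found mainly in the striatum. Kat2b was among those of Pvalb (0.78). For Sst they were Il34 (0.86), Syt5 and Nol4 (both 0.81), for Npy Dlg3, Baiap2 and Cacnb1 (all 0.83), and for Crh Unc5b (0.85), Cdc42ep2 (0.83) and Slc22a23 (0.81). These likenesses are descriptions of the same 27 libraries, with no test.

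Genes of inhibitory neuron identity outside the set gave few calls. Of 11 GABAergic genes edgeR called 0 in the averaged effect over 27 libraries, as did DESeq2, with 0 at an unadjusted p under 0.05. With vehicle over 27 libraries edgeR called 0 and DESeq2 called 1, with 2 at an unadjusted p under 0.05. Of all genes edgeR called 10.9% averaged and 3.77% with vehicle, and DESeq2 called 2138 and 1025. With 11 genes, the counts are near these shares. The averaged difference over 27 libraries was 0.09 for Gad1 (SE 0.19) and 0.00 for Gad2 (SE 0.27), the enzymes that make GABA, and 0.07 for Slc32a1 (SE 0.21), its vesicle transporter. The list's median was -0.04, against 0.01 for all genes. With the mean of these 3 genes as a covariate over 27 libraries, Cort was higher by 1.54 with vehicle (SE 0.36, adjusted p = 0.0137); that fit was chosen after the data had been seen. Of 16 genes of the Sst and Pvalb classes, edgeR called 1 higher and 2 lower in KO in the averaged effect over 27 libraries, where 10.9% of all genes were called. DESeq2 called 4, and 7 were at an unadjusted p under 0.05. Cox6a2, a subunit of cytochrome c oxidase, rose by 2.90 (SE 0.19, adjusted p = 3.16e-11). Sox6, a transcription factor of these classes, fell by 0.37 (SE 0.10, adjusted p = 0.0174), and Elfn1, a synaptic protein of Sst neurons, fell by 0.53 (SE 0.17, adjusted p = 0.0370). Over 36 libraries Sox6 and Elfn1 were not called (adjusted p = 0.658 and 0.983). Called there were Cox6a2 (3.40, SE 0.35, adjusted p = 9.7e-09), Tac1 (1.36, SE 0.43, adjusted p = 0.0347) and Kcnc1 (-0.87, SE 0.29, adjusted p = 0.0440), beside 11.9% of all genes. With vehicle over 27 libraries edgeR called 1 of the 16, Cox6a2 (3.02, SE 0.23, adjusted p = 1.50e-09), and DESeq2 called 2, with 6 at an unadjusted p under 0.05.

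Of 13 genes of the Vip and Lamp5 classes edgeR and DESeq2 called 0 with vehicle over 27 libraries, with 2 at an unadjusted p under 0.05 and a median of -0.32. Of all genes edgeR called 3.77% there, and DESeq2 called 1025. In the averaged effect both called 0 as well, with 1 at an unadjusted p under 0.05 and a median of 0.01. Of all genes edgeR called 10.9% there, and DESeq2 called 2138. With 13 genes, counts of 0 are near these shares and say little about the classes.

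Of 18 genes on the peptide receptor list, 12 were tested over 27 libraries, and 2 were lower in KO in the averaged effect (10.9% of all genes called). They were Cckbr, the cholecystokinin receptor of the cortex (-0.81, SE 0.24, adjusted p = 0.0309), and Sstr3, a receptor for somatostatin and cortistatin (-0.67, SE 0.16, adjusted p = 0.00638). By treatment, Cckbr was at -0.15 with vehicle (adjusted p = 0.845) and -1.47 with dm-αKG (adjusted p = 0.0317), and Sstr3 at -0.31 (adjusted p = 0.418) and -1.03 (adjusted p = 0.0202). The interaction of genotype and treatment was called for neither. Over 36 libraries neither was called (adjusted p = 0.726 and 0.0506), and 1 of 10 tested was lower there: Crhr1, the main receptor of corticotropin-releasing hormone (-0.91, SE 0.28, adjusted p = 0.0313).

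Of 16 genes that process propeptides or build dense core vesicles, 4 were higher and 1 lower in KO in the averaged effect over 27 libraries, where 5.28% of all genes were called higher and 10.9% in either direction. Scg5, a chaperone of the convertase PC2, rose by 0.52 (SE 0.10, adjusted p = 0.00188), Scg2 by 0.73 (SE 0.22, adjusted p = 0.0306), and Syt4 by 0.45 (SE 0.10, adjusted p = 0.00340). The fourth was Vgf (0.79, SE 0.17, adjusted p = 0.00372), an activity-regulated granin. Pcsk1n, an inhibitor of the convertase PC1, fell by 0.44 (SE 0.11, adjusted p = 0.0123). Over 36 libraries Scg5, Scg2 and Vgf were called and Syt4 and Pcsk1n were not (adjusted p = 0.887 and 0.481). The list's median was 0.09, against 0.01 for all genes. Of 14 other neuropeptide genes of the forebrain, a list that also holds Vgf, 12 were tested over 27 libraries, and Vgf was the 1 called in the averaged effect (list median 0.47). Over 36 libraries Tac1, the precursor of substance P in striatal neurons and some interneurons, was called as well (1.36, SE 0.43, adjusted p = 0.0347). Over 27 libraries Tac1 was not called (0.95, SE 0.39, adjusted p = 0.116). Of 14 activity-regulated genes, Bdnf, a growth factor (0.65, SE 0.16, adjusted p = 0.0100), and Crem, a factor that binds the cyclic AMP response element (0.35, SE 0.11, adjusted p = 0.0481), were higher in KO in the averaged effect over 27 libraries. These 2 of 14 stand beside 10.9% of all genes called, and the list's median was 0.26. DESeq2 called 4 of the 14 there, and 2138 of all genes. Over 36 libraries Fosb was called as well (1.11, SE 0.30, adjusted p = 0.0119), where 11.9% of all genes were called.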

How the data were processed

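Both deposited kinds of values were used as the authors deposited them: estimated counts per gene, rounded and not normalised, and CPM for fewer genes. Tools named in the submitters' processing notes, without roles, are deepTools, featureCounts 2.0.6, SAMtools 1.6, HISAT2 2.2.1, FastQC 0.12.1 and Trim Galore 0.6.10. The counting build, the strand setting and the handling of the molecular identifiers in the labels' protocols are not stated there, so near-identical copies and overlapping genes are uncertain.

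The counts entered edgeR 4.0.16 (R 4.3.3): filterByExpr, TMM scaling and 1 robust quasi-likelihood fit of all genes over 36 libraries in 4 groups, repeated over 27. A call is an adjusted p under 0.05 (Benjamini-Hochberg, all genes of that fit). Where no tool is named, an adjusted p comes from edgeR. Log2 CPM used a prior count of 2. Groups came from the labels, which do not tie libraries to separate animals, so p-values measure the spread between libraries. No library was a copy of another.

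The 9 members, the gene lists, the motifs and the 9 cerebellum-high libraries were chosen with earlier results of these data known. List genes are named where called in the comparison described, at most 4 a list by mean CPM, and like genes are the 3 of highest r, of which some for Vip and Pvalb are not reported here. Gad1, Gad2, Slc32a1 and Agrp were named outside this rule, after their values were seen. Alternatives were 14 planned and 3 added after seeing the data (the Gad covariate, the removal of 5 hypothalamus-high libraries and DESeq2, each over 27 libraries), besides leaving out each library. They include DESeq2 1.42.0 and limma 3.58.1 on the deposited CPM (pseudocount 0.5 or 2, genes at 1 CPM in 8 libraries). The scripts were tested on simulated data.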

Additional observations from a re-analysis of the deposited data

Results flagged for a closer look

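Each member was checked in each group for a library whose gap to its nearest neighbour is large for the group's range (Dixon's 95% critical value). Of 36 such groups 7 had one. Chance gives about 1 in 20 for independent normal values. CPM need not be normal and the members share libraries, so no excess over that rate is claimed. In KO-Veh-7, a cerebellum-high library, Pvalb was at 2170 CPM (next highest of KO-Veh 219) and Sst at 8.69 CPM (next lowest 178). In KO-aKG-7, also cerebellum-high, Pvalb was at 821 CPM (next highest of KO-aKG 385). In KO-aKG-8, Sst was at 113 CPM (next lowest 178); this library had the lowest cerebral cortex score of the 27 (2.29). In KO-Veh-9, Npy was at 390 CPM (next highest of KO-Veh 181), beside a hypothalamus score of 4.51 (11 genes; 3.89 with the 14 genes tested over 27 libraries). In WT-Veh-2, Crh was at 17 CPM (next highest of WT-Veh 7.88), beside a midbrain and hindbrain score of 4.04, the highest of the 27. In KO-Veh-1, Cck was at 689 CPM (next highest of KO-Veh 375), beside a cerebral cortex score of 5.16, the highest of the 27.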

How the results depend on the processing

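The count of members called with vehicle was 2 as reported. It was 3 over 27 libraries with DESeq2 (Cort, Npy and Sst) and 1 without the 9 cerebellum-high libraries, with the cerebellum score or 6 region scores as covariates, with limma on CPM at a pseudocount of 2, and over 27 libraries with the Gad1, Gad2 and Slc32a1 covariate; it was 0 without TMM, without the low-count filter, with the replicate block, with only the 2 groups compared, with limma at a pseudocount of 0.5, and over 27 libraries without the 5 of highest hypothalamus score. With dm-αKG it was 0 as reported and 1 with 6 region scores, over 27 libraries with 5 region scores (both Cort), and over 27 without the 5 hypothalamus-high libraries or with DESeq2 (both Pvalb). Averaged it was 3 as reported and 1 over 27 libraries, without the filter, with the cerebellum covariate, and over 27 with the Gad covariate or DESeq2. Leaving out each library gave 0 to 3 with vehicle (3 without KO-Veh-7), 0 with dm-αKG and 1 to 4 averaged. Cort with vehicle kept its direction in 17 of 17 alternatives and its call in 11, Npy its direction in 17 and its call in 5. Pvalb turned from lower to higher, past the threshold, at 1.6 and 1.3 with dm-αKG (27 libraries without the 5 hypothalamus-high, or with DESeq2) and at 0.48 and 0.68 averaged (6 region scores, or without the 5). A turn of sign where neither fit passes was not counted as one. Genes called with vehicle numbered 701 as reported, 167 to 1438 in the other settings and 440 to 1662 with 1 library left out. The cause of these changes was not tested, other than fewer libraries or genes where the setting removes them. The 4 tests of ratios kept their side of the threshold in each setting run: Cort to Sst with vehicle 1.01 to 1.26 with 1 library left out, and with dm-αKG 0.06 to 0.50; Npy to Sst 0.06 to 0.41 and -0.66 to -0.30. Replicate numbers are shared by the labels, and whether they pair the samples was not settled. Of 34 same-numbered pairs 16 correlated above 0.1 (-0.65 to 0.67) and 8 correlated best with their own number, with no chance level computed. With the replicate block, Cort with vehicle was 1.96 (adjusted p = 0.0752) and averaged Cort stayed called. Counting error is largest for Cort, Vip, Pdyn and Crh in the cerebellum-high libraries, where their lowest counts were 4, 4, 4 and 1; in the other 27 the lowest were 14, 35, 33 and 23.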
